A study of Homo sapiens with 16 samples.

Results

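Histone genes of 2 kinds were examined in HCT116 cells, an established human colon cancer line, in which the proteasome receptor Rpn10 had been shortened or the deubiquitinase OTUD5 knocked down. They were the genes for the replication-dependent core histones (H2A, H2B, H3 and H4) and for the linker histones (H1). Members were chosen by symbol alone, as protein-coding genes of the deposited expression table named H1-, H2AC, H2BC, H3C or H4C with a number. The rule found 41 of 22916 genes, and the 40 described here are 3 H1, 8 H2A, 12 H2B, 6 H3 and 11 H4 genes. The table itself holds only genes that passed a filter on low counts. GENCODE placed 30 of them on chromosome 6, 7 on chromosome 1 and 1 each on chromosomes 3 and 12, and had no entry for H3C2.

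RNA was sequenced in 4 groups of 4 libraries. Truncation cells carry an edited Rpn10, a proteasome subunit encoded by PSMD4, without its ubiquitin interacting motif (ΔUIM). Truncation knockdown cells received a mix of 4 siRNAs against OTUD5, and truncation scramble cells received a scrambled siRNA. WT knockdown cells and WT scramble cells are unedited HCT116 cells that received the same reagents. All 16 libraries therefore come from cells transfected at 50 nM for 48 hours, so no group was untransfected. All knockdown libraries share 1 siRNA mix, and the labels do not say whether the truncation line is 1 clone. In bulk RNA, fewer cells of a kind and less RNA per cell cannot be told apart.

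Core histones wrap DNA into nucleosomes, and linker histones bind the DNA where it enters and leaves the nucleosome. Most core histone genes and several H1 genes are transcribed in S phase, and their mRNAs end in a conserved stem-loop, bound by SLBP, in place of a poly(A) tail. H1-10 is made outside S phase as an ordinary polyadenylated mRNA. Some stem-loop genes, among them H2BC5, H2AC6, H2BC12, H2BC21 and H1-2, are known to give polyadenylated transcripts too.

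The stem-loop is shown because it is the mark of replication-dependent histone mRNAs. A stem of 6 pairs with a loop of 4 bases was found in GENCODE transcripts of 20 of the 39 annotated members, in 5 versions. Of the other 19 members, 14 have annotation that ends within 10 bases of the stop codon, so their 3′ ends could not be searched. One member of each version follows, from the GENCODE transcripts, with the 16 bases of the stem-loop in capitals.
H2AC25: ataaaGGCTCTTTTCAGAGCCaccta
H4C5: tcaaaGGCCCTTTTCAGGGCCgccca
H2BC5: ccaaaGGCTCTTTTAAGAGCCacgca
H4C9: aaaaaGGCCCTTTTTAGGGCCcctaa
H3C6: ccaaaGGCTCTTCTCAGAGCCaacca
The H2AC25 version was found in 9 members of the H2A, H2B and H3 families, and the H2BC5 version in 3 H2B genes. The H4C5 version was found in 5 H4 genes and the H4C9 version in 2 more. H3C6 alone carried its version, which differs in the loop. No match was found in H1-10, H4C3, H2AC11, H1-4 and H2BC11, whose annotation runs on past the stop codon. Of the 6 members named as polyadenylated, H2BC5, H2AC6 and H2BC21 held it, so the search does not separate these classes.

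Promoters, as RefSeq windows on GRCh38.p14 running from 250 bases before to 50 bases after the start, were held by the table for 36 members. Searched on both strands, CCAAT lay in 75% of members' windows (27 of 36) and in 34.6% of all 35116 windows of this length. TATAAA lay in 72.2% (26 of 36), against 11.5% of all windows. The octamer ATTTGCAT, the element of H2B promoters, lay in 38.9% (14 of 36), against 1.77% of all, and was found in 9 of 12 H2B and 5 of 7 H2A windows. AAACACA, the H1 box, lay in 2 of 3 H1 windows and in 5.64% of all. A match is a run of letters, not a bound site. H2A and H2B genes often lie head to head, and 6 such pairs had starts 219 to 331 bases apart. Where both windows of a pair were held they overlap and share matches, so the counts above are not independent. The octamers of the H2AC6, H2AC11, H2AC14 and H2AC20 windows are the same sites as those of their H2B partners. The windows below belong to genes whose levels are described next. The H2BC26 window (plus strand) also holds the start of H2AC25, which runs the other way 234 bases off; its capitals mark CCAAT boxes. In the H2BC5 window (plus strand) they mark CCAAT and TATAAA, and in the H1-2 window (minus strand) CCAAT and the H1 box, each on either strand.
H2BC26, chr1:228457853-228458152: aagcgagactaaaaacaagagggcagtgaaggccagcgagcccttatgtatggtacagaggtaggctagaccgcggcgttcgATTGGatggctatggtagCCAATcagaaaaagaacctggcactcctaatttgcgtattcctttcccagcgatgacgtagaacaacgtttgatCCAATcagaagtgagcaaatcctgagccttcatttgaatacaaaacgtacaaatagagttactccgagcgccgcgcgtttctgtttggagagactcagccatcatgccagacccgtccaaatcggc
H2BC5, chr6:26157871-26158170: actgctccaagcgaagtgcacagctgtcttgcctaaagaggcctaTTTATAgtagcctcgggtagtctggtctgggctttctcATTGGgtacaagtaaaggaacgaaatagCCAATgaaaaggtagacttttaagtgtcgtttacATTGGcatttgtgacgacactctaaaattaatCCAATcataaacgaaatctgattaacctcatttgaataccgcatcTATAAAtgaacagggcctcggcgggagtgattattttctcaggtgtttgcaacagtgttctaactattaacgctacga
H1-2, chr6:26056421-26056720: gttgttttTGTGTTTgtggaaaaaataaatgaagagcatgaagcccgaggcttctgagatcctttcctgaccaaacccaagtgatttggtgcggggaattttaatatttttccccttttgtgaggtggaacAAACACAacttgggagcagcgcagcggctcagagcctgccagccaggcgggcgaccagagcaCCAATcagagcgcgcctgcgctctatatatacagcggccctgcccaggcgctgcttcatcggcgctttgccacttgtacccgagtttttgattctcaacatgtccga

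Libraries held 28777244 to 29645663 counts, and levels below are the authors' TMM-scaled CPM (counts scaled to library size), on which 1 count is worth 0.0327 to 0.0357 CPM. OTUD5 stood at 20.7 ± 1.49 CPM in truncation knockdown and 94.9 ± 2.27 CPM in truncation scramble cells, and at 20.02 ± 2.05 CPM in WT knockdown and 88.5 ± 3.18 CPM in WT scramble cells (SD, n = 4 each). PSMD4 fell by 0.24 ± 0.06 on the log2 scale in truncation scramble against WT scramble cells, and rose by 0.30 ± 0.06 in truncation knockdown against WT knockdown cells. With knockdown it rose by 0.70 ± 0.06 in truncation and 0.16 ± 0.06 in WT cells, and its level does not check the truncation. The epithelial markers EPCAM, CDH1, KRT8, KRT18, CLDN4 and ELF3 exceeded 1 CPM in every library, while VIL1 reached at most 0.526 and TSPAN8 1.67 CPM and CDX1 and CEACAM5 were under the authors' filter, so 6 of 10 were present. Of 11 leukocyte, fibroblast and endothelial markers, COL1A1 made up most of the sum, at 31.5 to 55.8 CPM. The sum per library ran from 35.3 to 40.4 CPM in truncation knockdown, 35.2 to 40.1 in truncation scramble, 35.2 to 48.8 in WT knockdown and 47.4 to 68.7 in WT scramble cells. PTPRC, a leukocyte marker, reached 11.7 CPM in WT scramble replicate 4 and at most 0.821 CPM elsewhere. LYZ, PECAM1 and CD3E were also highest in that library, at 2.50, 1.64 and 0.322 CPM. COL1A1, COL3A1, DCN, VWF and CDH5 were highest in other libraries. Another 2 libraries stood apart: 32264 genes were detected in WT knockdown replicate 3 and 25626 to 27765 elsewhere, and WT knockdown replicate 2 differed most from its own group. The part of these differences in the histone values was not tested, and values without these libraries are given where they changed the call of a named member.

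Read per kb of exon, the histone genes covered a wide range. H1-10 averaged 39.2 CPM per kb over the 16 libraries, while the median of the 39 annotated members was 0.577 CPM per kb. Next in order were H2BC12 at 20.2, H1-2 at 8.87, H4C3 at 7.70, H2AC25 at 7.65 and H2BC5 at 7.07 CPM per kb. The lengths of H2BC12, H1-2 and H4C3 come from annotations of little more than the coding stretch, which raises their value per kb. All lengths are from GENCODE v29, while the authors counted with an annotation that differs from it, so values per kb are approximate. The 6 members known to be polyadenylated too had a median of 7.97 CPM per kb, against 0.469 CPM per kb for the other 33. Whether poly(A) selection was used is not given in the sources used here. In all, 22 members had enough counts to be tested: 3 of 3 H1, 5 of 8 H2A, 9 of 12 H2B, 2 of 6 H3 and 3 of 11 H4 genes. The 18 others averaged 0.0885 to 0.237 CPM and never exceeded 17 counts in a library, and they are described by level only. A further 30 histone genes of the same naming, such as H1-3, H1-5 and H3C11, had at most 5 counts in any library and were outside the authors' filtered table.

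**Figure D1:**
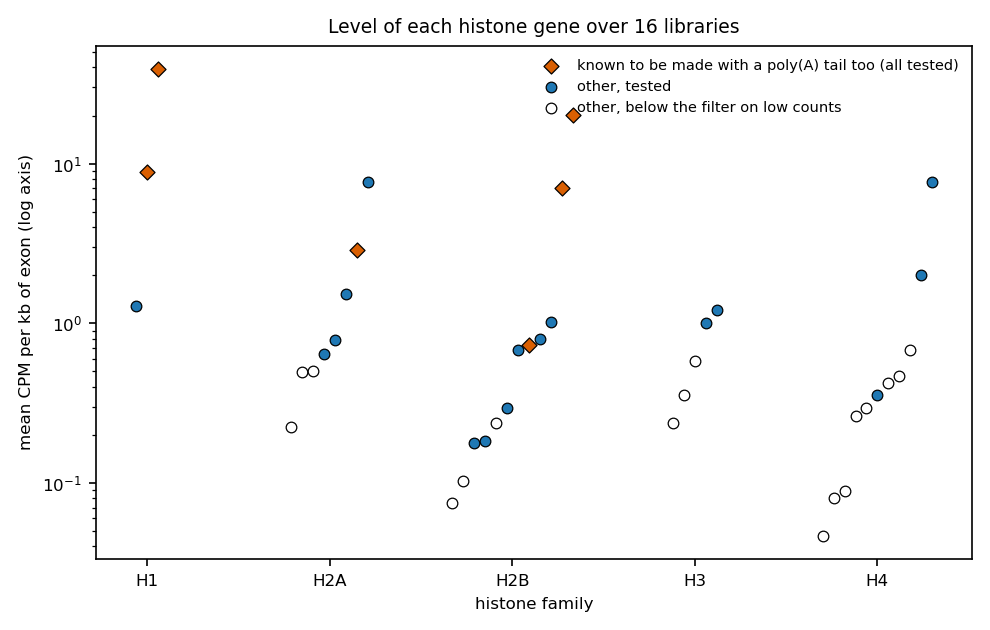
Mean level of each annotated histone gene over the 16 libraries, in CPM per kb of exon on a log axis, by family. Diamonds are the 6 genes known to be polyadenylated too, filled circles the other tested genes and open circles the genes under the filter on low counts; H1-10 stands highest at 39.2 CPM per kb and most H3 and H4 genes lie under 1.

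Counted over the 22 tested members, truncation against WT in scramble cells gave 1 higher and 5 lower, where 44% of all 17104 tested genes were called (21.6% higher and 22.4% lower). The members' median log2 fold change was -0.17, against -0.02 for all genes. The same comparison in knockdown cells also gave 1 higher and 5 lower, where 45.5% of all genes were called (21.9% higher and 23.6% lower), with medians of -0.24 for the members and -0.003 for all genes. Knockdown gave 5 higher and 3 lower in truncation cells, where 56.7% of all genes were called (28.7% higher and 28.1% lower), and 3 higher and 2 lower in WT cells, where 50.3% were called (25.2% higher and 25.1% lower). The members' medians with knockdown were 0.16 in truncation cells and 0.10 in WT cells, against 0.02 and 0.006 for all genes. The share of members called was thus below that of all genes in each comparison, and most members have few counts. No member passed the test of a different knockdown effect in the genotypes with edgeR or with DESeq2, where edgeR called 5.69% of all genes (2.05% higher and 3.65% lower). One member, H1-2, had an unadjusted p under 0.05 there. The comparisons share groups, so their values are not independent of each other.

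H1-10 (chromosome 3, 129314771 to 129316277, minus strand), a replication-independent linker histone of many tissues, had the highest level of the 40 genes and was lower in truncation cells. It was measured at 26.5, 28.2, 27.3 and 27.7 CPM in truncation knockdown and 38.8, 40.7, 36.1 and 40.5 CPM in truncation scramble libraries. WT knockdown libraries had 79.8, 57.0, 75.3 and 88.7 CPM and WT scramble libraries 100.1, 91.8, 88.5 and 98.8 CPM. The genotypes did not overlap under either siRNA, while a WT knockdown library reached the lowest WT scramble one. The log2 fold change for truncation against WT was -1.30 ± 0.09 in scramble and -1.45 ± 0.09 in knockdown cells (adjusted p = 1.1e-11 and 2.1e-12, edgeR). With knockdown it fell by 0.47 ± 0.09 in truncation cells and by 0.32 ± 0.09 in WT cells. The WT value was -0.21 without WT knockdown replicate 2 and -0.17 without replicates 2 and 3. The difference between those effects was -0.15 (95% interval -0.41 to 0.11), and -0.27 without replicate 2 (adjusted p = 0.049) and -0.32 without replicates 2 and 3 (adjusted p = 0.022). Its locus overlaps H1-10-AS1 on the opposite strand, and whether counting used strand is not given in the sources used here, so their reads cannot be told apart.

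**Figure D2:**
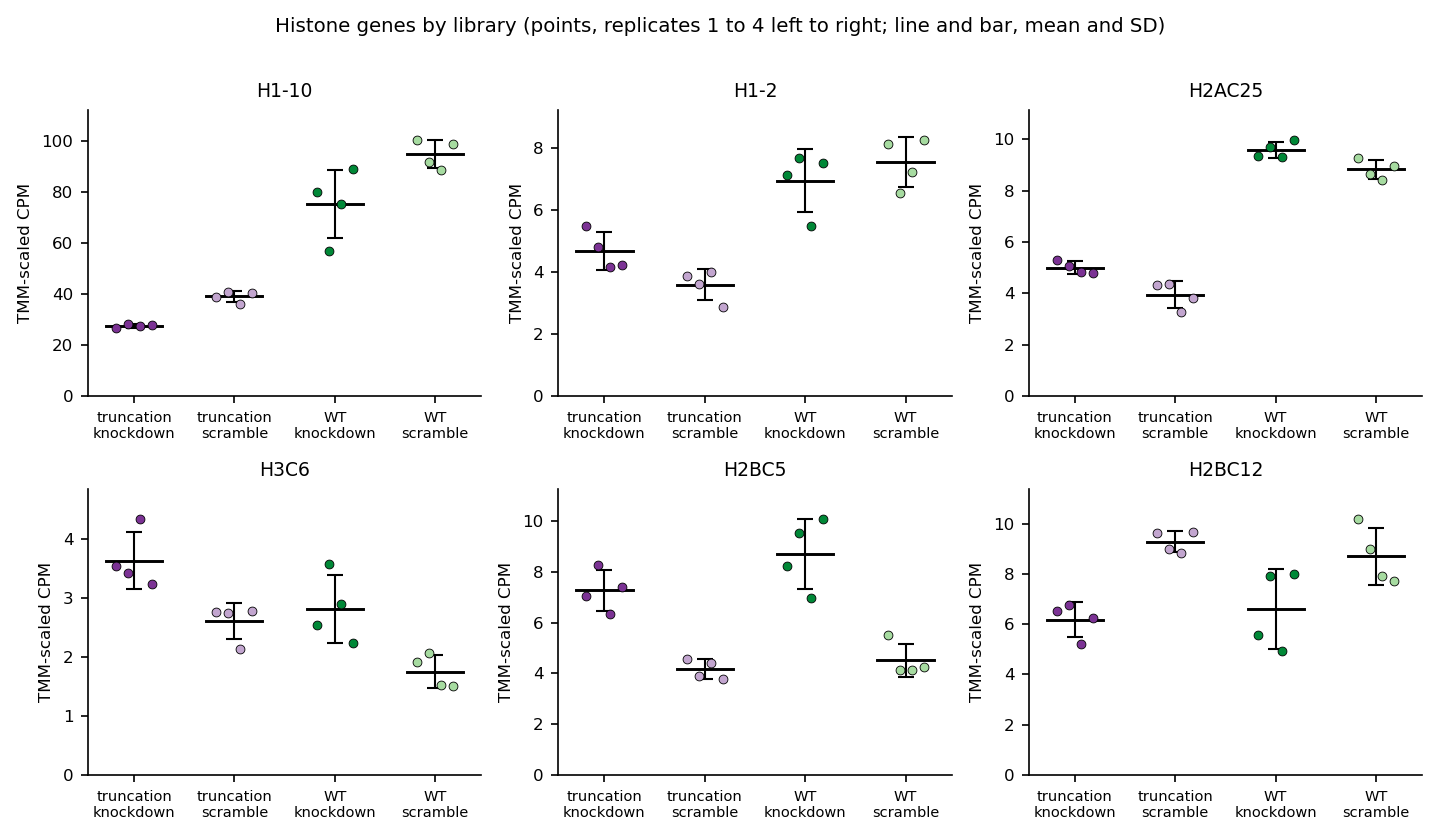
Level of 6 histone genes in every library, in TMM-scaled CPM, with the 4 replicates of each group as points and the mean and SD as line and bar. H1-10 lies between 26.5 and 28.2 CPM in truncation knockdown libraries and between 88.5 and 100.1 CPM in WT scramble libraries, while H2BC5 is higher in both knockdown groups.

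H1-2 (chromosome 6, 26055787 to 26056428, minus strand) is a linker histone of the large cluster. It was measured at 5.48, 4.81, 4.16 and 4.24 CPM in truncation knockdown and 3.89, 3.63, 4.01 and 2.87 CPM in truncation scramble libraries. WT knockdown libraries had 7.13, 7.69, 5.49 and 7.52 CPM and WT scramble libraries 8.15, 6.56, 7.25 and 8.26 CPM. All truncation libraries lay below all WT libraries treated alike, but in knockdown cells the nearest were level, at 5.484 and 5.485 CPM (166 and 167 counts). Truncation knockdown libraries lay above truncation scramble ones. The log2 fold change for truncation against WT was -1.08 ± 0.13 in scramble and -0.56 ± 0.12 in knockdown cells. With knockdown it rose by 0.41 ± 0.13 in truncation cells (adjusted p = 0.010), a call lost without truncation knockdown replicate 1 (0.30, adjusted p = 0.071) or truncation scramble replicate 4 (0.29, adjusted p = 0.073). In WT cells the log2 fold change was -0.11 ± 0.12 and did not pass. The difference between the knockdown effects was 0.52 ± 0.18 (95% interval 0.16 to 0.89), with an unadjusted p of 0.0071 and an adjusted p of 0.082. It passed in 1 of 22 alternative settings, without WT knockdown replicate 2 (0.57, adjusted p = 0.045). Without replicates 2 and 3 together it was 0.43 (adjusted p = 0.14).

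H1-4, the remaining H1 gene tested, averaged 0.969 CPM over all libraries. It ranged from 0.754 to 1.19 CPM in truncation knockdown, 0.582 to 1.47 in truncation scramble, 0.591 to 1.602 in WT knockdown and 0.488 to 1.18 in WT scramble libraries. The groups overlapped and no comparison passed. Its 0.56 ± 0.31 with knockdown in WT cells passed without WT knockdown replicate 3 (0.77, adjusted p = 0.037) or without WT scramble replicate 4 (0.85, adjusted p = 0.034).

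Core histone genes moved in different directions. Among H2A genes, H2AC25 (chromosome 1, 228456979 to 228457873, minus strand), a gene outside the large cluster, had the highest mean. It was measured at 5.32, 5.08, 4.82 and 4.80 CPM in truncation knockdown and 4.34, 4.38, 3.26 and 3.81 CPM in truncation scramble libraries. WT knockdown libraries had 9.36, 9.72, 9.33 and 9.96 CPM and WT scramble libraries 9.27, 8.65, 8.43 and 8.97 CPM. The truncation libraries all lay below the WT ones: the log2 fold change for truncation against WT was -1.18 ± 0.10 in scramble and -0.93 ± 0.09 in knockdown cells. With knockdown it rose by 0.38 ± 0.10 in truncation cells (adjusted p = 0.0024), and in WT cells the value was 0.13 ± 0.09 (adjusted p = 0.23). The difference between the knockdown effects was 0.25 (95% interval -0.03 to 0.52) and did not pass.

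H2BC26, the gene that shares the promoter window of H2AC25, was low, with 3 to 23 counts in a library. Its level was 0.229 to 0.426 CPM in truncation knockdown, 0.105 to 0.306 in truncation scramble, 0.411 to 0.755 in WT knockdown and 0.486 to 0.768 in WT scramble libraries. It was lower with truncation by 1.46 ± 0.35 (log2) in scramble cells (adjusted p = 0.0013, edgeR) and by 0.98 ± 0.33 in knockdown cells (adjusted p = 0.016). It passed with knockdown in neither genotype. Its WT libraries, where it is high, brought it through the filter on low counts. Its truncation values are therefore no separate support for the fall of H2AC25. H2BC26 was named after its values were seen, as the partner of H2AC25. In 3 more head-to-head pairs, both genes were tested. In H2AC6 and H2BC4, 219 bases apart, and in H2AC20 and H2BC21, 323 bases apart, only the H2A gene passed in any comparison. In H2AC11 and H2BC11, 292 bases apart, neither gene passed in the comparisons between groups.

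H2AC6 (chromosome 6, 26124145 to 26139116, plus strand) was lower in truncation cells and higher with knockdown in WT cells. It was measured at 4.23, 4.16, 4.03 and 3.89 CPM in truncation knockdown and 3.78, 3.05, 3.77 and 3.56 CPM in truncation scramble libraries. In WT cells it was 6.82, 6.88, 5.81 and 7.42 CPM in knockdown and 4.49, 4.01, 5.06 and 5.83 CPM in scramble libraries. It fell by 0.47 ± 0.12 (log2) in truncation against WT scramble cells and by 0.71 ± 0.11 in truncation against WT knockdown cells. With knockdown it rose by 0.48 ± 0.11 in WT cells, although 1 library of each group crossed. In truncation cells the libraries did not overlap, but the 0.24 ± 0.12 missed the threshold (adjusted p = 0.0998) except with upper-quartile scaling, where it was 0.29 (adjusted p = 0.043).

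Among H2B genes, H2BC5 and H2BC12 moved in opposite directions with knockdown. H2BC5 (chromosome 6, 26158146 to 26171349, plus strand) was measured at 7.04, 8.26, 6.36 and 7.41 CPM in truncation knockdown and 4.59, 3.90, 4.41 and 3.77 CPM in truncation scramble libraries. The WT values were 8.22, 9.54, 6.96 and 10.1 CPM in knockdown and 5.51, 4.15, 4.13 and 4.25 CPM in scramble libraries. Every knockdown library lay above every scramble library. It rose by 0.83 ± 0.12 (log2) with knockdown in truncation cells and by 0.95 ± 0.12 in WT cells (adjusted p = 3.0e-06 and 4.5e-07), and the difference between these effects was -0.12 (95% interval -0.48 to 0.24). Truncation against WT passed in neither siRNA group, at -0.13 ± 0.13 in scramble and -0.25 ± 0.12 in knockdown cells. The knockdown value passed without WT knockdown replicate 3 (-0.34, adjusted p = 0.019), without WT knockdown replicates 2 and 3 (-0.32, adjusted p = 0.043) or without truncation knockdown replicate 2 (-0.32, adjusted p = 0.046). The annotated gene overlaps the pseudogene LARP1P1 on the same strand and another locus on the opposite strand.

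H2BC12 (chromosome 6, 27146418 to 27146798, minus strand), the H2B gene with the highest mean, was measured at 6.54, 6.76, 5.21 and 6.24 CPM in truncation knockdown and 9.63, 9.01, 8.83 and 9.66 CPM in truncation scramble libraries. In WT cells, knockdown libraries had 5.55, 7.90, 4.93 and 8.01 CPM and WT scramble libraries 10.2, 9.001, 7.91 and 7.72 CPM. Truncation knockdown libraries all lay below truncation scramble ones, while the WT groups overlapped. H2BC12 fell by 0.55 ± 0.13 (log2) with knockdown in truncation cells (adjusted p = 0.00065) and by 0.39 ± 0.13 in WT cells (adjusted p = 0.012). The WT call was lost without WT knockdown replicate 1 (-0.32, adjusted p = 0.053), WT knockdown replicate 3 (-0.29, adjusted p = 0.063) or WT scramble replicate 1 (-0.31, adjusted p = 0.065). The 7 other H2B genes tested did not pass with knockdown. H2AC20, named after its values were seen, was called lower with knockdown in truncation cells (-1.25 ± 0.44 on the log2 scale, 4 to 32 counts per library).

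H3C6 (chromosome 6, 26224199 to 26227473, plus strand), an H3 gene of the large cluster, was the member that passed as higher in all 4 comparisons between groups. It was measured at 3.53, 3.41, 4.33 and 3.23 CPM in truncation knockdown and 2.77, 2.74, 2.14 and 2.77 CPM in truncation scramble libraries. The WT values were 2.54, 3.56, 2.89 and 2.23 CPM in knockdown and 1.92, 2.06, 1.53 and 1.501 CPM in scramble libraries. Truncation knockdown libraries were highest and WT scramble libraries lowest, with overlap between truncation knockdown and WT knockdown libraries. The log2 fold change for truncation against WT was 0.56 ± 0.17 in scramble and 0.38 ± 0.15 in knockdown cells. The knockdown value is just past the threshold (adjusted p = 0.046) and was lost with DESeq2, without the filter, and without any of 10 single libraries. With knockdown it rose by 0.51 ± 0.15 in truncation cells and by 0.69 ± 0.17 in WT cells, the WT value falling short without WT knockdown replicates 2 and 3 together (0.44, adjusted p = 0.065).

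H3C10, the other H3 gene tested, was measured at 1.78, 1.57, 2.16 and 1.63 CPM in truncation knockdown and 0.910, 1.82, 1.1204 and 1.25 CPM in truncation scramble libraries. In WT cells, knockdown libraries had 1.44, 1.54, 1.54 and 1.53 CPM and WT scramble libraries 1.67, 1.01, 1.63 and 1.25 CPM. It was called higher with knockdown in truncation cells (0.52 ± 0.21, adjusted p = 0.034), where 1 scramble library lay within the knockdown range. That call was lost with DESeq2 (0.51, adjusted p = 0.073), without the filter (0.49, adjusted p = 0.10) and without any of 5 single libraries. In WT cells the value was 0.13 ± 0.21.

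H4 genes gave no call. H4C3, the H4 gene with the highest mean, was measured at 2.71, 2.97, 2.29 and 2.84 CPM in truncation knockdown and 5.22, 2.88, 3.73 and 3.5996 CPM in truncation scramble libraries. WT knockdown libraries had 2.81, 5.45, 1.08 and 3.31 CPM and WT scramble libraries 3.87, 4.29, 3.30 and 3.22 CPM. The WT knockdown libraries spanned the widest range, which is set by replicates 2 and 3. H4C3 had a log2 fold change of -0.48 ± 0.26 with knockdown in truncation cells (adjusted p = 0.12), which passed without the filter (-0.50, adjusted p = 0.0030) without WT knockdown replicate 3 (-0.50, adjusted p = 0.028) or without replicates 2 and 3 (-0.50, adjusted p = 0.0080). In WT cells the value was -0.21 ± 0.26, and its direction depends on the library left out. It was -0.61 without WT knockdown replicate 2 (adjusted p = 0.033), 0.07 without replicate 3 (adjusted p = 0.80) and -0.27 without both (adjusted p = 0.28). Truncation against WT in knockdown cells, at -0.21, likewise stood at 0.19 without replicate 2, -0.50 without replicate 3 and -0.17 without both, and passed in none of these. H4 genes are near-identical in their coding sequence. How reads that match several copies were counted is not given in the sources used here, so single H4 values are uncertain. The same limit holds for genes of the other core families where they share sequence.

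**Figure D3:**
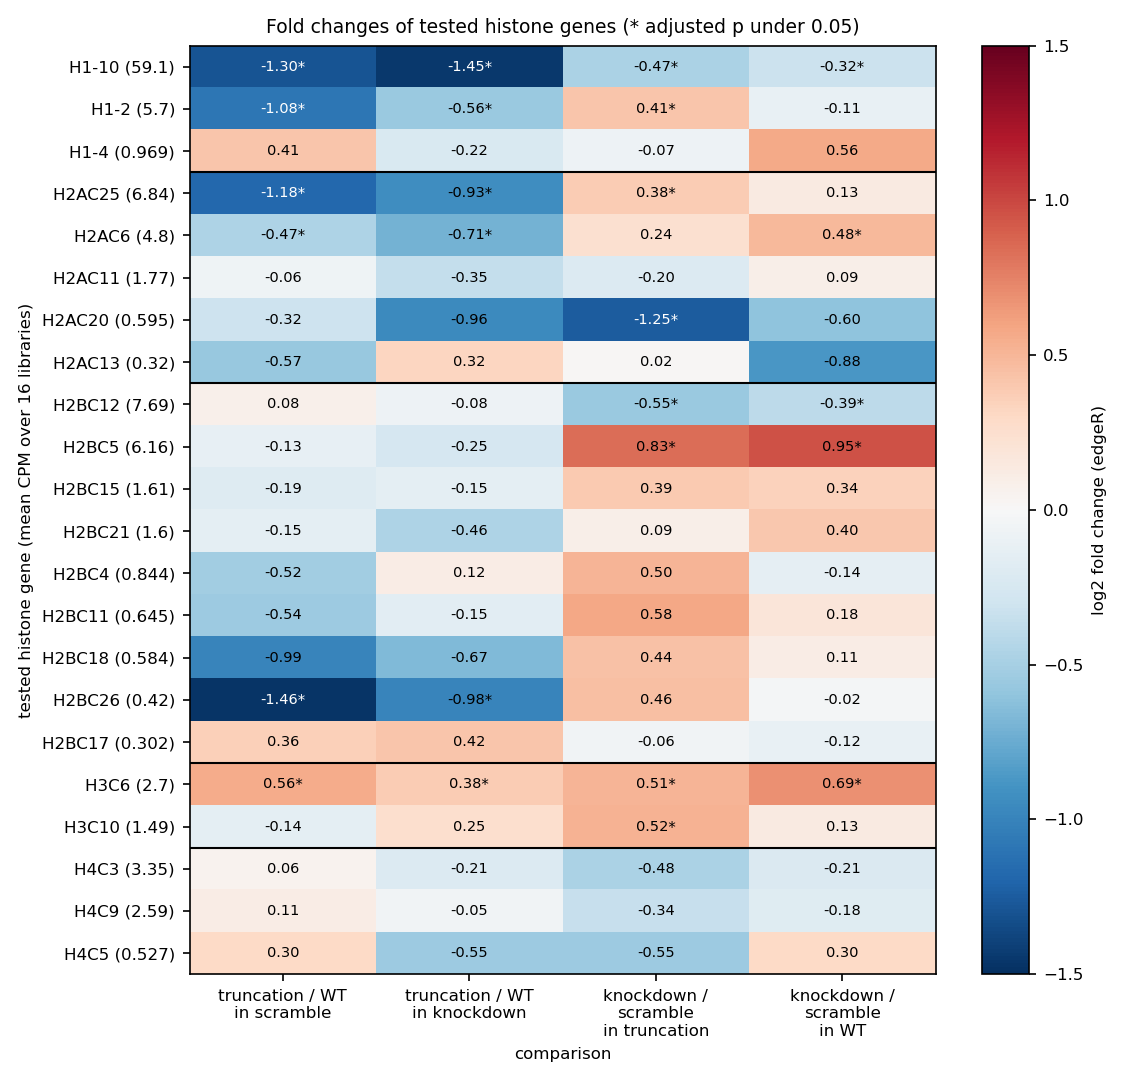
Log2 fold change of the 22 tested histone genes (rows, by family and then by mean CPM, given in brackets) in the 4 comparisons between groups (columns), from edgeR, with an asterisk where the adjusted p was under 0.05. H1-10 is lower in all columns, H3C6 higher in all, and H2BC5 higher in the knockdown columns at 0.83 and 0.95.

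By family, the H1 genes gave 2 lower of 3 for truncation in both siRNA groups, which were H1-10 and H1-2. H2A genes gave 2 lower of 5 tested in both, which were H2AC25 and H2AC6. H2B genes gave 1 lower of 9 in both, which was H2BC26, a low gene that passed the filter through its WT libraries. H3 genes gave 1 higher of 2, which was H3C6. Of all genes, 22.4% were called lower and 21.6% higher in scramble cells, and 23.6% and 21.9% in knockdown cells. With so few genes per family, these counts do not set a family apart from all genes. The 6 members known to be polyadenylated too gave 3 lower for truncation in either siRNA group, which is 50% called, all lower. Of all genes, 44% and 45.5% were called in scramble and knockdown cells, with 22.4% and 23.6% lower. With knockdown they gave 2 higher and 2 lower in each genotype, which is 66.7% called, against 56.7% of all genes in truncation and 50.3% in WT cells. The 15 other core members tested gave 3 higher and 1 lower with knockdown in truncation cells (26.7% called) and 1 higher in WT cells (6.67%). With truncation they gave 1 higher and 2 lower in either siRNA group (20%). Most of these 15 had lower levels than the 6, and the part of level in the calls was not tested.

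Levels were also summed by family. The 40 members summed to 77.3 ± 1.93 CPM in truncation knockdown, 85.9 ± 3.19 in truncation scramble, 138 ± 14.0 in WT knockdown and 152 ± 7.91 in WT scramble cells (SD, n = 4 each). Without H1-10, the 39 others summed to 49.8 ± 1.66 CPM in truncation knockdown, 46.9 ± 2.24 in truncation scramble, 63.1 ± 8.79 in WT knockdown and 57.6 ± 2.55 in WT scramble cells (SD, n = 4 each). H2A genes summed to 11.6 ± 0.195 CPM in truncation knockdown and 10.7 ± 0.678 in truncation scramble, against 19.5 ± 1.38 in WT knockdown and 17.5 ± 0.938 in WT scramble cells, with no overlap between genotypes. Most of each H2A sum came from H2AC25 and H2AC6, the H2A genes called lower above. Their means were 3.95 and 3.54 CPM in truncation scramble and 8.83 and 4.85 CPM in WT scramble cells. H2B genes summed to 19.7 ± 1.45, 18.6 ± 1.09, 22.9 ± 4.28 and 19.8 ± 1.47 CPM in the same order, and these groups overlapped. H3 genes summed to 6.28 ± 0.639 CPM in truncation knockdown, 4.65 ± 0.765 in truncation scramble, 4.99 ± 0.781 in WT knockdown and 3.98 ± 0.408 in WT scramble cells. H4 genes summed to 6.67 ± 0.337 CPM in truncation knockdown, 8.37 ± 0.466 in truncation scramble, 7.62 ± 2.44 in WT knockdown and 7.98 ± 0.342 in WT scramble cells. The wide H4 spread of WT knockdown libraries ran from 4.73 to 10.6 CPM. In truncation cells, H3 sums were 5.78 to 7.21 CPM with knockdown and 3.90 to 5.65 CPM with scramble. H4 sums there were 6.29 to 7.09 CPM with knockdown and 7.91 to 8.79 CPM with scramble, so neither family overlapped.

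**Figure D4:**
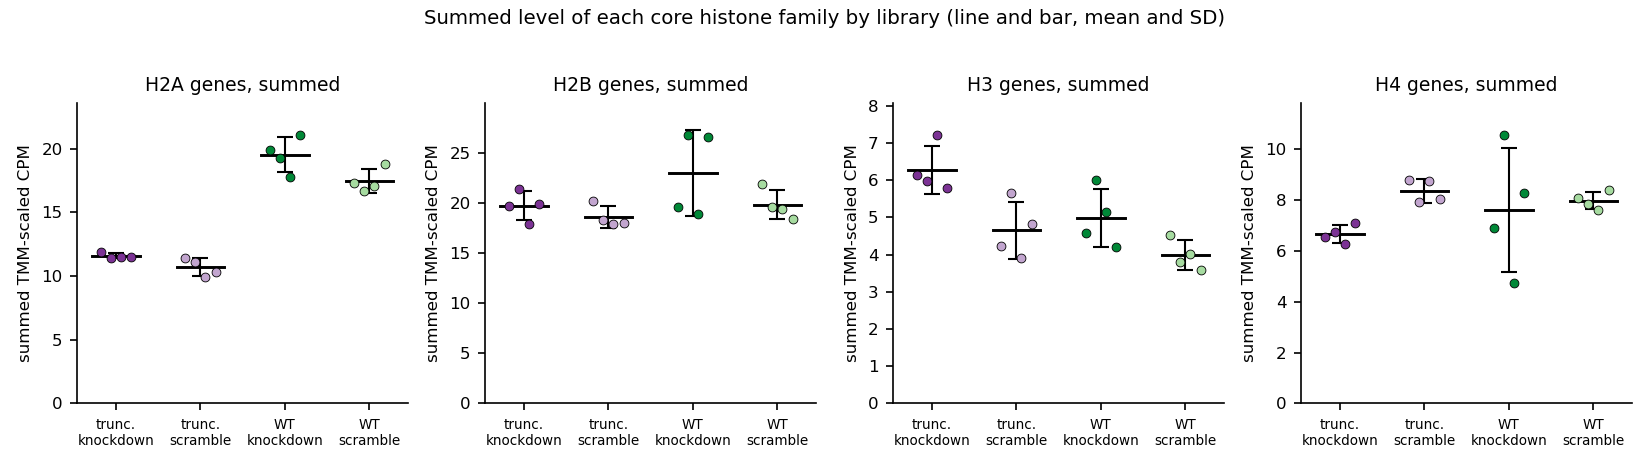
Summed level of all genes of each core histone family in every library, in TMM-scaled CPM, with mean and SD per group. H2A sums are between 9.95 and 11.9 CPM in truncation libraries and between 16.6 and 21.04 CPM in WT libraries, while the H2B groups overlap.

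RNAs other than histone mRNAs that lack a poly(A) tail were set beside these sums, and their part in the histone values was not tested. The 11 such genes of a fixed list that are in the authors' table summed to 85.3 ± 13.4 CPM in truncation knockdown, 41.9 ± 9.81 in truncation scramble, 62.5 ± 11.3 in WT knockdown and 42.4 ± 9.21 in WT scramble cells (SD, n = 4 each). Of 26 listed, 5 were tested. With knockdown 4 rose and 1 fell in truncation cells, and 2 rose and 1 fell in WT cells, where 56.7% and 50.3% of all genes were called. SNORD3A, the U3 small nucleolar RNA, rose by 4.01 ± 0.16 (log2) in truncation and 3.32 ± 0.18 in WT cells, and has near-identical copies. RN7SL1, the RNA of the signal recognition particle, rose by 0.79 ± 0.18 in truncation and 0.44 ± 0.18 in WT cells. SCARNA7, a guide RNA of the Cajal body, was called higher by 1.64 ± 0.50 in truncation cells, at few counts. Its level was 0.0679 to 0.171 CPM in truncation scramble and 0.171 to 0.429 CPM in truncation knockdown libraries, and these groups overlapped. It passed the filter on low counts through knockdown libraries, where it is high, so this rise is uncertain. SNORD17, another small nucleolar RNA, fell by 1.29 ± 0.23 in truncation and 0.58 ± 0.22 in WT cells. For truncation, SNORD3A rose by 0.64 ± 0.24 in scramble and 1.33 ± 0.12 in knockdown cells, and SNORD17 fell by 0.59 ± 0.24 in knockdown cells.

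Genes that transcribe histone genes and process or degrade their mRNAs were examined next. SLBP, which binds the stem-loop, stood at 72.4 ± 6.69 CPM in truncation knockdown, 125 ± 1.75 in truncation scramble, 103 ± 1.31 in WT knockdown and 144 ± 4.34 in WT scramble cells (SD, n = 4 each). It fell by 0.76 ± 0.06 (log2) with knockdown in truncation cells and by 0.47 ± 0.05 in WT cells, and the effects differed by -0.28 ± 0.08 (adjusted p = 0.030). It fell with truncation by 0.21 ± 0.05 in scramble and 0.50 ± 0.06 in knockdown cells. NPAT, the coactivator of histone genes in S phase, stood at 20.04 ± 0.743, 21.6 ± 1.72, 21.6 ± 1.35 and 23.4 ± 1.27 CPM in the same group order and passed in no comparison. Of the 28 genes listed, all tested, 8 rose and 10 fell with knockdown in truncation cells and 8 rose and 8 fell in WT cells. That is 64.3% and 57.1% called, near the 56.7% and 50.3% of all genes. With truncation 3 rose and 13 fell in scramble cells and 4 rose and 12 fell in knockdown cells, where 22.4% and 23.6% of all genes were called lower. Their median log2 fold changes were -0.008 and -0.08 with knockdown in truncation and WT cells and -0.13 and -0.12 with truncation in scramble and knockdown cells.

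ERI1, an exonuclease that trims histone mRNA ends, rose by 0.58 ± 0.06 (log2) with knockdown in truncation cells and by 0.63 ± 0.06 in WT cells. DIS3L2, an exonuclease that degrades uridylated RNAs, fell by 0.78 ± 0.07 in truncation and 0.50 ± 0.07 in WT cells. MIF4GD, a partner of SLBP in translation, fell by 0.56 ± 0.11 and 0.55 ± 0.11 in the same comparisons. LSM10, a subunit of the U7 particle that cuts histone pre-mRNA, rose by 0.60 ± 0.08 with truncation in scramble cells and by 0.43 ± 0.08 in knockdown cells. LSM11, its partner in that particle, fell by 0.40 ± 0.08 and 0.41 ± 0.08, and UPF1, a helicase needed to degrade histone mRNA, by 0.34 ± 0.05 and 0.42 ± 0.05. ZC3H8, a subunit of the little elongation complex, fell by 0.40 ± 0.08 with truncation in scramble cells.

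Of 10 genes tested from a list of histone variants, 5 fell with knockdown in truncation cells, and in WT cells 5 fell and 2 rose. That is 50% and 70% called, against 56.7% and 50.3% of all genes. With truncation 5 fell in scramble and 5 in knockdown cells, and none rose. Of all genes, 22.4% and 23.6% were called lower there, and 21.6% and 21.9% higher. H2AX, which is phosphorylated at DNA breaks, stood at 64.2 ± 2.58 CPM in truncation knockdown, 252 ± 3.12 in truncation scramble, 98.9 ± 13.3 in WT knockdown and 307 ± 31.1 in WT scramble cells (SD, n = 4 each). Its log2 fold change with knockdown was -1.94 ± 0.08 in truncation and -1.63 ± 0.08 in WT cells. H2AZ1, the variant at promoters, fell by 0.69 ± 0.06 and 0.61 ± 0.06, and CENPA, the centromere variant, by 1.001 ± 0.07 and 0.60 ± 0.07, with a difference between the CENPA effects of -0.40 ± 0.09 (adjusted p = 0.012). H2AJ, an H2A variant made with a poly(A) tail, fell by 0.43 ± 0.14 and 0.54 ± 0.13 with knockdown and by 0.77 ± 0.13 with truncation in scramble cells. MACROH2A2 fell by 0.22 ± 0.05 with truncation in scramble cells. H2AW and H2BU1 of that list are older names of H2AC25 and H2BC26 and were not counted again.

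Genes of S phase entry and replication were mostly lower. Of 32 tested, SLBP included, 26 fell and 1 rose with knockdown in truncation cells, and 24 fell and 1 rose in WT cells, where 28.1% and 25.1% of all genes were called lower. With truncation 27 fell and 1 rose in scramble cells, and 30 fell and 1 rose in knockdown cells, where 22.4% and 23.6% of all genes were called lower. The list's median log2 fold changes were -0.64 and -0.46 with knockdown in truncation and WT cells, and -0.29 and -0.50 with truncation in scramble and knockdown cells. GINS1, part of the replicative helicase, fell by 1.79 ± 0.07 with knockdown in truncation and 1.31 ± 0.06 in WT cells. POLD1, the catalytic subunit of a replicative polymerase, fell by 1.55 ± 0.08 and 1.25 ± 0.08. RRM2, a subunit of ribonucleotide reductase, fell by 0.71 ± 0.06 with truncation in scramble cells and by 1.11 ± 0.06 in knockdown cells. For 9 of the 32 the knockdown effects differed between genotypes, all more negative in truncation cells. In that test 5.69% of all genes were called, 3.65% lower and 2.05% higher. Among the 9 were UHRF1 at -0.51 ± 0.09, GINS1 at -0.48 ± 0.09 and MCM5 at -0.41 ± 0.08.

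Histone chaperones carry histones to and from DNA. Of 28 tested, 14 fell and 4 rose with knockdown in truncation cells and 11 fell and 5 rose in WT cells, where 28.1% and 25.1% of all genes were called lower and 28.7% and 25.2% higher. With truncation 11 fell and 2 rose in scramble cells, and 16 fell and 3 rose in knockdown cells, where 22.4% and 23.6% of all genes were called lower and 21.6% and 21.9% higher. RBBP4, a subunit of chromatin assembly factor 1, fell by 1.13 ± 0.05 (log2) and 0.77 ± 0.05 with knockdown in truncation and WT cells. CHAF1A, its largest subunit, fell by 0.74 ± 0.06 and 0.52 ± 0.06. TONSL, which binds newly made histones at forks, fell by 0.93 ± 0.09 and 1.03 ± 0.09 with knockdown and by 0.78 ± 0.09 with truncation in scramble cells. ASF1A, an H3-H4 chaperone, rose by 0.85 ± 0.09 with truncation in scramble and 0.74 ± 0.08 in knockdown cells, while its paralog ASF1B fell by 0.47 ± 0.06 and 0.54 ± 0.06.

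**Figure D5:**
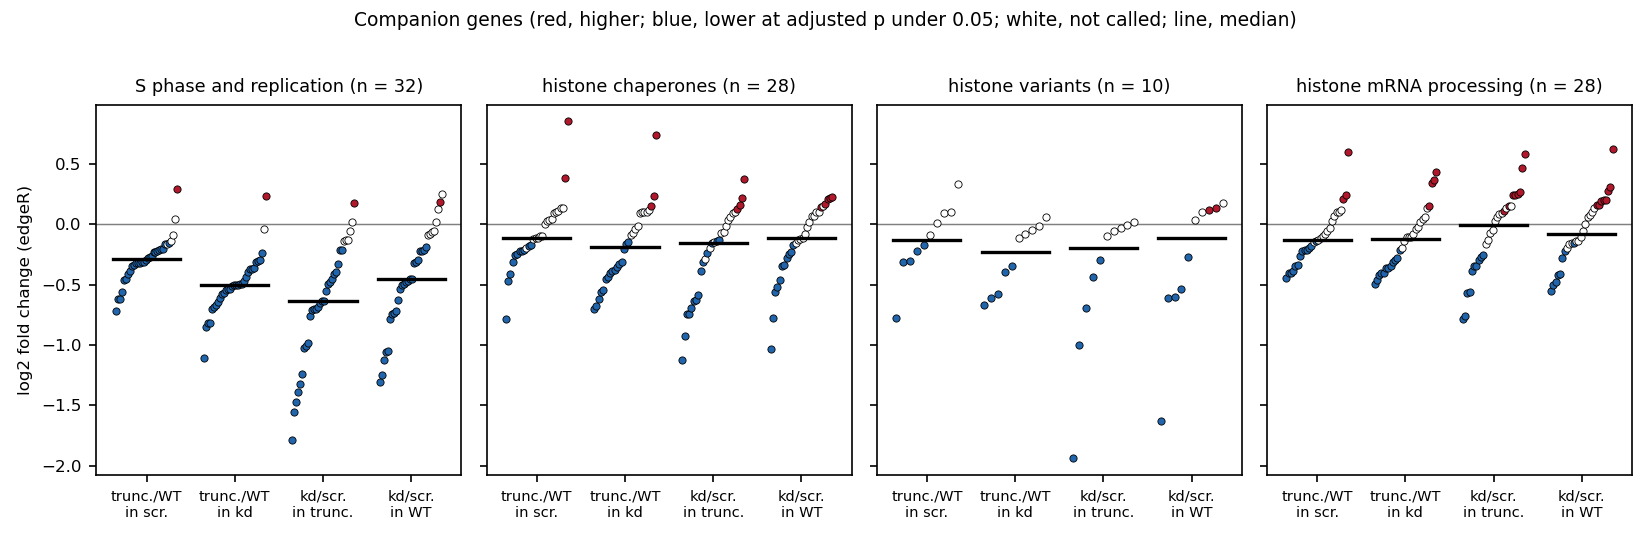
Log2 fold changes from edgeR of 4 lists of companion genes in the 4 comparisons between groups, 1 point per gene, sorted within each comparison, with the list's median as a line. In the S phase list nearly all points lie under 0, with a median of -0.64 for knockdown in truncation cells; the histone mRNA processing list spreads to both sides.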

How the data were processed

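RNA was sequenced from 16 libraries of HCT116 cells, 4 per group. Deposited by the authors were raw gene counts under Ensembl identifiers, the same counts for 22916 filtered genes, and a scaled signal (TMM-scaled CPM), in which each library's values are its filtered counts times 1 constant. Tools named in the submitters' processing notes are STAR 2.7.3a, DESeq2, edgeR and limma with hg38, without roles. The counting program, its strand setting, its treatment of reads with several matches and any poly(A) selection were not given in the sources used here. Every level printed is the authors' deposited signal. Groups follow the library name and treatment in the labels; for the 4 truncation knockdown libraries the titles say scramble, and the low OTUD5 levels there go with the treatment label. The labels do not say that replicates came from separate cultures, and a p-value therefore reflects library spread, which may be technical. None of the replicate pairs was identical (chi-square per degree of freedom 2.75 to 20.8).

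Raw deposited counts were kept with filterByExpr (17104 of 60668 genes, at least 99.8% of each library's counts), scaled by TMM and fitted with edgeR 4.0.16 in R 4.3.3 as a quasi-likelihood model with 1 coefficient per group over all libraries (12 residual degrees of freedom). The 5 comparisons were two-sided with Benjamini-Hochberg adjustment over all tested genes, and called means an adjusted p under 0.05. A value after ± is the standard error of the log2 fold change unless named as SD. The script was tested on simulated data. One member is not reported here and is in no count, sum or figure of members. The members and lists were chosen with earlier results of these data known. Named members were the highest of each family, every tested H1 gene and, per comparison, up to 3 called at each end with a mean of at least 1 CPM. The rule for lists took up to 4 called genes per comparison, or the 2 of highest level if no gene was called, with SLBP and NPAT always; some of these are given by count only. Counts bound the precision of low members, and errors of single libraries cover counting only. Coordinates are 1-based on GRCh38 from GENCODE v29. The authors' annotation differs from it, since H3C2 has counts but no entry there. Alternatives were DESeq2 1.42.0, 2 other scalings, no filter, a replicate block and libraries left out.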

Additional observations from a re-analysis of the deposited data

Results flagged for a closer look

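In the 48 sets of 4 libraries checked for a library far from the rest (10 named members and 2 sums in each group), 3 stood out, and chance alone marks about 1 set in 20. H2BC5 was 5.51 CPM in the highest WT scramble library, against 4.13 to 4.25 CPM in the 3 others. H3C6 was 2.14 CPM in the lowest truncation scramble library, against 2.74 to 2.77 CPM in the others. H3C10 was 1.44 CPM in the lowest WT knockdown library, against 1.53 to 1.54 CPM in the others.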

How the results depend on the processing

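No direction of a called value was reversed. Over all alternatives, 309 recomputed counts and medians stayed close to the reported value (counts within 1.5 times) and 21 did not. Of the fold changes of named members, 1061 kept their side of the threshold, 13 newly passed and 25 no longer passed. The single member called higher with truncation in knockdown cells, H3C6, was lost with DESeq2 (0 called), without the filter (0 called) and, leaving out 1 library at a time, in 10 cases (0 to 1 called). Leaving out 1 library, the members called lower in that comparison were 5 to 7, and for truncation in scramble cells 1 higher and 5 to 7 lower. Knockdown then gave 3 to 6 higher and 2 to 4 lower in truncation cells, with 3 higher without truncation knockdown replicate 1 or truncation scramble replicate 4. In WT cells it gave 3 to 5 higher and 1 to 3 lower, with 5 higher without WT knockdown replicate 3 or WT scramble replicate 4 and 1 lower without WT knockdown replicate 3 or WT scramble replicate 1. Medians ranged from -0.29 to -0.13 and -0.40 to -0.19 for truncation in scramble and knockdown cells, and from 0.07 to 0.25 and -0.03 to 0.14 for knockdown in truncation and WT cells. For the difference between the knockdown effects, 0 to 1 were called higher and 0 to 1 lower, with a median of -0.16 to 0.02. Without WT knockdown replicate 2, H1-2 was called higher there and H1-10 lower, and without replicates 2 and 3 together 1 was called lower, H1-10. The cause was not tested. Replicate numbers do not mark shared batches in the labels, and same-numbered libraries deviated together with correlations of -0.08 to 0.16. With the replicate block, H1-10 was at -1.29 for truncation in scramble cells, and the block changed no call of a named member. Levels of single H4 and other low genes are limited by depth, with under 20 counts in many libraries.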
